A study of Homo sapiens with 12 samples.

Results

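The E2F and RB family was followed through 10 genes, E2F1 to E2F8, RB1 and RBL1, which were taken by name with earlier results of these data known. They were found by symbol among the 60675 Ensembl gene IDs of the count table, 30808 of which held a count, and all 10 had counts in every library, from 28 to 8134 per library. The RNA came from SW1783 cells, an established human astrocytoma line, that had been exposed for 24 h to a hot water extract of Aconitum carmichaeli Debeaux, an aconite used in East Asian medicine. The extract was given at 20 µg/mL (low dose), 100 µg/mL (medium dose) or 500 µg/mL (high dose), and the vehicle group received PBS with 2% DMSO, the solvent in which the study's methods dissolved the stock of the extract. Each of the 4 groups had 3 libraries. The sample titles and treatment labels name the extract, whereas the protocol text attached to the samples describes another herb, and nothing says whether the 3 libraries of a group came from separate cultures, so that p-values measure the spread between these libraries, which may be technical.

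E2F proteins are transcription factors that decide whether the genes for DNA replication are read, and RB1 and its relatives, the pocket proteins, hold them in check until cyclin-dependent kinases phosphorylate the pocket proteins late in G1. E2F1, E2F2 and E2F3 activate these genes, E2F4 and E2F5 mostly repress them together with the pocket proteins RBL1 (p107) and RBL2 (p130), E2F6 represses without any pocket protein, and E2F7 and E2F8 are atypical repressors that bind DNA without a DP partner. The pathway is commonly disturbed in astrocytic tumours, where RB1, the kinase genes CDK4 and CDK6 or the CDK inhibitor locus CDKN2A are frequent sites of alteration.

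Library totals lay between 18863863 and 24200576 counts. The share of counts on mitochondrial rRNA genes differed between groups, at 0.912% to 0.960% in vehicle, 3.01% to 3.33% at low dose, 7.67% to 8.05% at medium dose and 5.76% to 6.06% at high dose. Of 10 astrocyte and glial markers, VIM, CD44 and SOX9 were abundant and SLC1A3, an astrocyte glutamate transporter gene, was present at 110 to 782 counts, whereas AQP4 was at 0 in every library and GFAP, S100B, ALDH1L1 and SLC1A2 did not exceed 6, 5, 2 and 9 counts. At high dose 2 of these 10 were called lower by the rule given below, SLC1A3 with mean normalised counts of 690 in vehicle and 126 at high dose and NES with 214 and 64.7. The summed level of the list, almost all of it VIM and CD44, lay between 144288 and 152085 normalised counts in vehicle and between 152314 and 154036 at high dose.

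Markers of other cell types also moved. In the same comparison 18.2% of all genes tested were called, 8.66% higher and 9.57% lower. Of 4 epithelial markers 2 were called lower, and their sum lay between 4861 and 5073 in vehicle and between 1797 and 1888 at high dose, with EPCAM and CDH1 near 0. Of 4 neuron markers 1 was called lower, with a sum of 1314 to 1377 in vehicle against 1000.2 to 1067 at high dose. That sum joins opposite moves. SNAP25, the gene called, had mean normalised counts of 704 in vehicle and 167 at high dose, and SYT1, not called, had 638 and 868. Of 4 oligodendrocyte markers 2 were called higher, with a sum of 138 to 174 against 282 to 291 and MOG at no more than 1 count. Of 4 microglia and leukocyte markers 2 were called lower, although their sum, which CD68 dominated, was 3149 to 3316 against 3944 to 4228 and AIF1 did not exceed 1 count. The part of these marker shifts in the results that follow was not tested. With size factors estimated without mitochondrial genes, the number of members called was the same in every comparison.

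E2F proteins also act on each other's genes, so the bases just upstream of 5 family members are shown: E2F2 and RBL1, which fell at high dose, E2F1 and E2F3, which stayed within 1.5-fold of vehicle, and E2F7, which rose. Each line gives the 150 bases before the start in RefSeq, build GRCh38.p14, read along the gene's own strand. Capitals mark matches to 4 spellings of the E2F site, namely the spelling TTTCCCG, the spelling TTTCGCG, the spelling TTTGCCG and the spelling TTTGGCG, sought on both strands.
E2F2, chr1:23531234-23531383 (minus strand): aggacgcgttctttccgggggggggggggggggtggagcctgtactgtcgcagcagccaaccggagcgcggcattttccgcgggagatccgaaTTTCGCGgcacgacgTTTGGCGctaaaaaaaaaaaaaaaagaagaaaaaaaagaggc
RBL1, chr20:37095998-37096147 (minus strand): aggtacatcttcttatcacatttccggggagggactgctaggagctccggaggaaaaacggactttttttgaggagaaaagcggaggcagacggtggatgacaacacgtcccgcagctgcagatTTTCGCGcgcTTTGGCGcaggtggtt
E2F1, chr20:33686386-33686535 (minus strand): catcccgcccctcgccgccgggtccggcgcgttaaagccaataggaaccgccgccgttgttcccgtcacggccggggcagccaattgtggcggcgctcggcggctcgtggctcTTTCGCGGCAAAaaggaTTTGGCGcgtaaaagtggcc
E2F3, chr6:20401729-20401878 (plus strand): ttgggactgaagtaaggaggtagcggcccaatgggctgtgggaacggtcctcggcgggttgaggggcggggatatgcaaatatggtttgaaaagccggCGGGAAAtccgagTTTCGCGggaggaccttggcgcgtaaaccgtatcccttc
E2F7, chr12:77065570-77065719 (minus strand): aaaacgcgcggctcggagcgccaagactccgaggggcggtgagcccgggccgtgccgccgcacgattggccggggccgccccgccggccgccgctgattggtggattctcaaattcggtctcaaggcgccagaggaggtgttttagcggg

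In the 250 bases upstream, RBL1 held 2 matches, starting 26 and 16 bases before the start, and E2F2 held 2, at 57 and 42 bases. E2F3 also held 2, at 52 and 39 bases before the start shown, while the window of its other RefSeq start (chr6:20403364-20403613) held 0. E2F1 held 3, at 37, 32 and 20 bases, the first pair of which overlapped on opposite strands. E2F6 held 2 matches farther upstream, at 183 and 78 bases, and the E2F4 and E2F7 windows held 0. Of 35116 RefSeq windows of that length, 2573 (7.33%) held at least 1 match and 174 (0.495%) held 2 or more. The entry for RB1 lies at a start inside the gene and was not used, and E2F5 and E2F8, both called at high dose as described below, had no entry. A match is a stretch of letters and not a measured binding site, and members with matches close to the start included genes that fell at high dose and genes within 1.5-fold of vehicle.

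Expression was compared as normalised counts, which are counts divided by a library size factor. A gene was called differentially expressed when the DESeq2 Wald test gave an adjusted p under 0.05, corrected over all genes tested, and the fold change exceeded 1.5 either way. At high dose E2F7 and E2F5 were higher than in vehicle and E2F2, E2F8 and RBL1 were lower, so that 5 of 10 members were called, 2 higher and 3 lower. Of all 19453 genes tested, 18.2% were called in this comparison, 8.66% higher and 9.57% lower. At medium dose 2 members were called, E2F7 higher and E2F2 lower, against 3.81% of all genes. At low dose 0 members were called, against 0.118% of all genes. By adjusted p alone, with no fold threshold, 7 members passed at high dose, 7 at medium dose and 0 at low dose, against 46.5%, 29.5% and 3.29% of all genes. RNA from whole cultures was measured, so less RNA per cell and fewer cells at the stage that expresses a gene cannot be told apart.

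**Figure D1:**
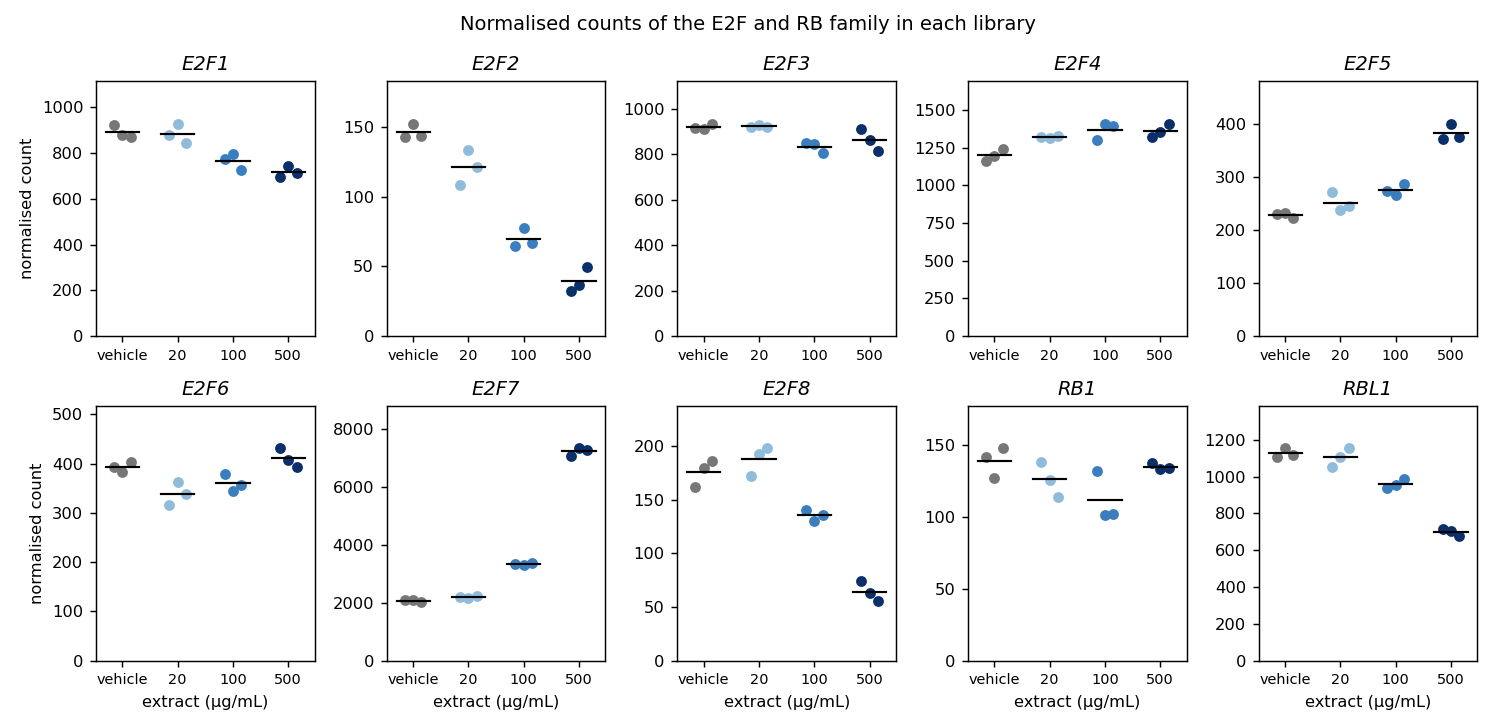
Normalised count (vertical axes, each from 0) of each of the 10 members in the 12 libraries, by extract dose in µg/mL. Points are libraries and the bar is the mean of the 3 libraries of a group. E2F7 climbed from about the vehicle level at 20 µg/mL to over 7059 counts at 500 µg/mL, E2F2 and E2F8 descended to under 75 counts, and RB1, E2F3 and E2F6 overlapped between vehicle and high dose.

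Among the activators, E2F2 changed most. It was at 142, 152 and 144 normalised counts in the 3 vehicle libraries, 109, 134 and 121 at low dose, 64.9, 77.4 and 66.9 at medium dose and 32.4, 36.9 and 49.6 at high dose. Every library at a given dose lay below every library at the next lower dose, and the low dose libraries lay below all vehicle libraries. E2F2 fell by 1.87 on the log2 scale at high dose (SE 0.207, DESeq2 adjusted p = 1.39e-18), a fitted loss of 72.7%, and by 1.07 at medium dose (SE 0.189, adjusted p = 2.47e-07). The difference at low dose was -0.27 (SE 0.177, unadjusted p = 0.125), and E2F2 received no adjusted p there because its mean count of 94.2 was under the mean of 263 below which DESeq2's independent filtering withholds one in that comparison. Its Ensembl ID is ENSG00000007968 and it lies on the minus strand of chr1:23506438-23531233 (GRCh38).

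E2F1 (ENSG00000101412, chr20:33675477-33686385, minus strand), the founding member and an activator tied to S phase entry and cell death, moved far less. Its libraries held 871 to 922 normalised counts in vehicle, 844 to 929 at low dose, 727 to 796 at medium dose and 696 to 745 at high dose, so that medium and high dose lay wholly below vehicle and overlapped each other. The log2 difference from vehicle was -0.22 at medium dose (SE 0.0666, adjusted p = 0.00579) and -0.31 at high dose (SE 0.0669, adjusted p = 1.46e-05), both short of 1.5-fold and therefore not called. E2F3 (ENSG00000112242, chr6:20401879-20493714, plus strand), the third activator, held 910 to 936 normalised counts in vehicle and 920 to 928 at low dose. It held 804 to 848 at medium dose, wholly below vehicle. At high dose it held 817 to 912, with 1 high dose library among the vehicle values. Its log2 difference at medium dose was -0.15 with a 95% interval of -0.27 to -0.02 and an adjusted p of 0.0633. Its log2 difference at high dose was -0.09 with a 95% interval of -0.22 to 0.03 and an adjusted p of 0.220. The activators therefore differed in size of change, from a fitted loss of 72.7% in E2F2 at high dose to 19.3% in E2F1 and 6.32% in E2F3, of which only the E2F2 value was called.

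Of the repressors that work with pocket proteins, E2F5 rose at high dose. E2F5 (ENSG00000133740, chr8:85177154-85217158, plus strand) was at 230, 232 and 222 normalised counts in vehicle, 271, 238 and 245 at low dose, 274, 266 and 286 at medium dose and 372, 401 and 375 at high dose. All dosed libraries were above all vehicle libraries and the high dose libraries were above all others, while low and medium dose overlapped. The log2 fold change was 0.75 at high dose (SE 0.105, adjusted p = 9.53e-12) and 0.27 at medium dose (SE 0.109, adjusted p = 0.0472), the latter short of 1.5-fold. Exons of genes on the opposite strand cover 18.8% of the E2F5 exon bases. They belong to ENSG00000254208, which was at 0 in both groups, and to RBIS, a ribosome biogenesis factor gene, which was at 533 ± 10.3 normalised counts in vehicle and 509 ± 56.7 at high dose (SD, n = 3) with an adjusted p of 0.592.

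E2F4 (ENSG00000205250, chr16:67192155-67198918, plus strand), the main E2F of resting cells, had the highest counts among the members that were not called. Its libraries held 1163 to 1238 normalised counts in vehicle, 1312 to 1327 at low dose, 1297 to 1404 at medium dose and 1317 to 1410 at high dose. Every dosed library was above every vehicle library, and the 3 doses overlapped one another. The log2 difference from vehicle was 0.14 at low dose (adjusted p = 0.145), 0.19 at medium dose (adjusted p = 0.00230) and 0.19 at high dose (SE 0.0532, adjusted p = 0.00142), so that the value at 500 µg/mL was close to that at 100 µg/mL, with a high minus medium difference whose 95% interval ran from -0.11 to 0.10.

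E2F6 (ENSG00000169016, chr2:11444375-11466177, minus strand) represses through polycomb proteins and has no site for pocket proteins. It held 382 to 404 normalised counts in vehicle, 317 to 363 at low dose, 345 to 379 at medium dose and 393 to 431 at high dose. The low and medium dose libraries lay below vehicle and the high dose libraries overlapped it, an order unlike that of any called member. Its log2 differences from vehicle were -0.21 (adjusted p = 0.267), -0.13 (adjusted p = 0.334) and 0.06 (95% interval -0.12 to 0.24, adjusted p = 0.628) from low to high dose. A likelihood ratio test across the 4 groups gave E2F6 an adjusted p of 0.0370, which passed 0.05 in the full set of 12 libraries but in only 2 of the 12 sets that leave out a library, with adjusted p-values of 0.0372 to 0.185.

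The atypical repressors moved in opposite directions. E2F7 (ENSG00000165891, chr12:77021248-77065569, minus strand) was at 2085, 2078 and 2022 normalised counts in vehicle, 2185, 2152 and 2235 at low dose, 3326, 3286 and 3377 at medium dose and 7059, 7328 and 7259 at high dose. Each group lay wholly above the group at the next lower dose, and the libraries of a group stayed close together. E2F7 rose 3.50-fold at high dose (log2 1.81, SE 0.0341), where the adjusted p of DESeq2 was below the smallest number the software can hold and the edgeR quasi-likelihood adjusted p was 1.15e-21. At medium dose it rose 1.61-fold (log2 0.69, SE 0.0357, adjusted p = 6.10e-81), and at low dose its log2 difference was 0.09 (SE 0.0372, adjusted p = 0.231).

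E2F8 (ENSG00000129173, chr11:19224063-19241620, minus strand), the closest relative of E2F7 and often its partner on DNA, was at 162, 180 and 186 normalised counts in vehicle, 172, 193 and 198 at low dose, 140, 130 and 136 at medium dose and 74.1, 63.1 and 55.2 at high dose. Vehicle and low dose overlapped, the medium dose libraries lay below both, and the high dose libraries lay lowest. E2F8 fell by 1.47 on the log2 scale at high dose (SE 0.168, adjusted p = 2.00e-17), a fitted loss of 63.8%. At medium dose its log2 difference was -0.38 (SE 0.150, adjusted p = 0.0387), short of 1.5-fold. Counted per exon length within each library, E2F7 RNA was 7.73 ± 0.675 times as abundant as E2F8 RNA in vehicle, 7.70 ± 0.556 times at low dose, 16.2 ± 0.560 times at medium dose and 62.6 to 86.4 times, with a mean of 75.1, at high dose (SD, n = 3). No high dose library came near the other groups.

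**Figure D2:**
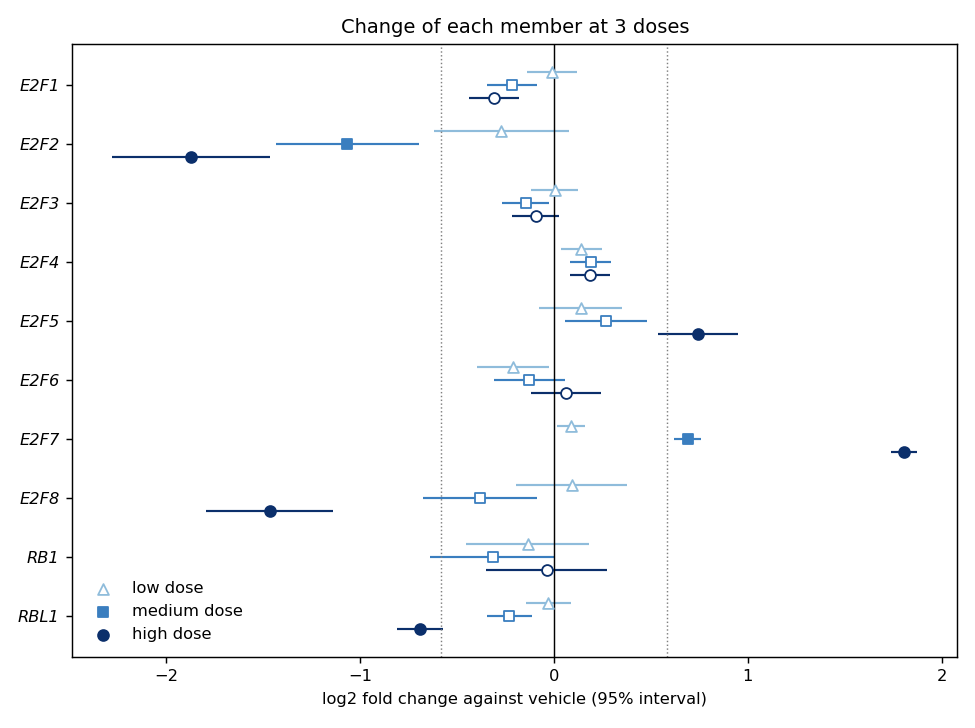
Log2 fold change of each member against vehicle (horizontal axis) with its 95% interval, for low dose (triangles), medium dose (squares) and high dose (circles). Filled symbols are called members, open symbols are not, and dotted lines mark 1.5-fold. At high dose E2F7 stood at 1.81 and E2F5 at 0.75 to the right, and E2F2 at -1.87, E2F8 at -1.47 and RBL1 at -0.69 to the left.

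Of the pocket proteins, RBL1 was lower at high dose and RB1 was not called at any dose. RBL1 (ENSG00000080839, chr20:36996349-37095997, minus strand) was at 1106, 1154 and 1117 normalised counts in vehicle, 1054, 1107 and 1152 at low dose, 935, 956 and 985 at medium dose and 715, 702 and 676 at high dose. Vehicle and low dose overlapped, medium dose lay below both and high dose below all. RBL1 fell by 0.69 on the log2 scale at high dose (SE 0.0612, adjusted p = 2.18e-28), a fitted loss of 38.1%, and its medium dose difference of -0.23 (SE 0.0591, adjusted p = 6.70e-04) was short of 1.5-fold. RB1 (ENSG00000139687, chr13:48303744-48599436, plus strand) held 127 to 148 normalised counts in vehicle, 114 to 139 at low dose, 102 to 132 at medium dose and 133 to 138 at high dose. Its log2 difference at high dose was -0.04 with a 95% interval of -0.35 to 0.28 (adjusted p = 0.879), and at medium dose -0.32 with an interval of -0.64 to 0.00449 (adjusted p = 0.137), where 1 of the 3 libraries reached the vehicle range.

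The 3 comparisons above share the vehicle libraries, so neighbouring doses were also compared with each other. Between high and medium dose 3 members were called, against 10.2% of all genes: E2F7 higher by 1.12 on the log2 scale (SE 0.0323, adjusted p = 7.00e-259), E2F8 lower at -1.08 (SE 0.172, adjusted p = 2.22e-09) and E2F2 lower at -0.81 (SE 0.219, adjusted p = 9.01e-04). E2F5 at 0.48 (adjusted p = 1.95e-05) and RBL1 at -0.46 (adjusted p = 1.57e-12) were short of 1.5-fold, so that 5 members passed by adjusted p alone, against 40.9% of all genes. Between medium and low dose 2 members were called, against 1.94% of all genes: E2F7 at 0.60 (SE 0.0356, adjusted p = 4.58e-62) and E2F2 at -0.79 (SE 0.192, adjusted p = 4.64e-04). By adjusted p alone 5 passed there, against 18.9% of all genes. In percent of the log2 difference at high dose, the difference already present at medium dose was 56.9 for E2F2, 38.2 for E2F7, 35.9 for E2F5, 33.4 for RBL1 and 26.1 for E2F8. E2F2 was thus the called member with the largest share of its change at 100 µg/mL and E2F8 the one with the smallest, an order of values that was not tested.

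At low dose the members gave no call, and 3 of 10, E2F4, E2F6 and E2F7, had an unadjusted DESeq2 p under 0.05. The lowest adjusted p was 0.145 by DESeq2 and 0.0708 by the edgeR quasi-likelihood test, which also called 0 members. E2F2, E2F8 and RB1 had no adjusted p because of their low counts. Over the 4 groups together the likelihood ratio test passed 8 of 10 members at an adjusted p under 0.05, against 45.8% of all genes, and the members that did not pass were E2F3 (adjusted p = 0.0819) and RB1 (adjusted p = 0.362). Libraries did not overlap between high dose and vehicle in 7 members, 3 wholly higher and 4 wholly lower, where 30.5% and 29.9% of all genes tested were so ordered.

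Levels of different genes were compared per length, as TPM, the count per exon base of a gene scaled so that every library has the same total. In vehicle E2F4 at 65.0 ± 1.57 TPM, E2F1 at 64.6 ± 2.36 and E2F7 at 64.0 ± 1.64 led the family and overlapped one another (SD, n = 3). RBL1 at 36.9 ± 1.02, E2F3 at 34.6 ± 0.189 and E2F6 at 18.9 ± 0.358 TPM followed without overlap, and E2F8 at 8.30, E2F5 at 7.42, E2F2 at 5.22 and RB1 at 4.21 TPM closed the order, each separate from its neighbour. With the longest annotated transcript as the length, E2F4 led alone at 66.2 TPM in vehicle and E2F7 and E2F1 stood at 52.0 and 47.8, so the order at the top depends on the length used.

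At high dose E2F7 led at 192 ± 4.37 TPM, ahead of E2F4 at 63.2 ± 2.08 and E2F1 at 44.5 ± 1.78 TPM, with no overlap between neighbours anywhere in the order. E2F8 at 2.59 ± 0.384 and E2F2 at 1.21 ± 0.268 TPM were then the lowest members, below RB1 at 3.50 ± 0.0581. TPM depends on the other RNA in a library, here on the mitochondrial rRNA share given above, so TPM values are compared within a group and between groups only as ratios inside a library. E2F7 RNA per length was 0.991 ± 0.0228 times E2F1 RNA in vehicle, 1.06 ± 0.0707 at low dose, 1.86 ± 0.114 at medium dose and 4.30 ± 0.0839 at high dose. RBL1 RNA per length equalled 1.00 ± 0.0356 times that of its relative RBL2 in vehicle, 0.902 ± 0.0486 at low dose, 0.768 ± 0.0299 at medium dose and 0.561 ± 0.0134 at high dose, and the libraries of neighbouring groups did not overlap.

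Of the summed TPM of the 8 E2F genes, the atypical repressors E2F7 and E2F8 took 27.0% ± 0.366 in vehicle, 27.8% ± 0.725 at low dose, 36.6% ± 0.752 at medium dose and 54.2% ± 0.225 at high dose. The activators E2F1 to E2F3 took 39.0% ± 0.622 in vehicle, 37.4% ± 0.955, 29.9% ± 1.10 and 20.5% ± 0.409 at high dose in the same order. The shares add to 100% in each library, so a rise of E2F7 alone lowers the others. E2F4 and E2F5 lost share at high dose although neither had lower normalised counts there. E2F8, by contrast, fell in its own normalised counts. The summed TPM itself was 268 ± 1.69 in vehicle and 358 ± 6.47 at high dose, with the limit on TPM between groups given above. E2F4 and E2F5 together stayed between 26.3% and 29.4% in each library up to the medium dose and took 20.6% ± 0.474 at high dose. The largest class thus passed from the activators in vehicle to the atypical repressors from the medium dose on. With the longest transcript as length the atypical share was 26.0%, 26.7%, 35.1% and 52.4% from vehicle to high dose. By that length E2F4 and E2F5 were the largest class at low dose, at 34.2% beside 33.0% for the activators. They were second in vehicle, at 32.1% beside 34.6% for the activators, and at medium dose, at 32.7%.

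**Figure D3:**
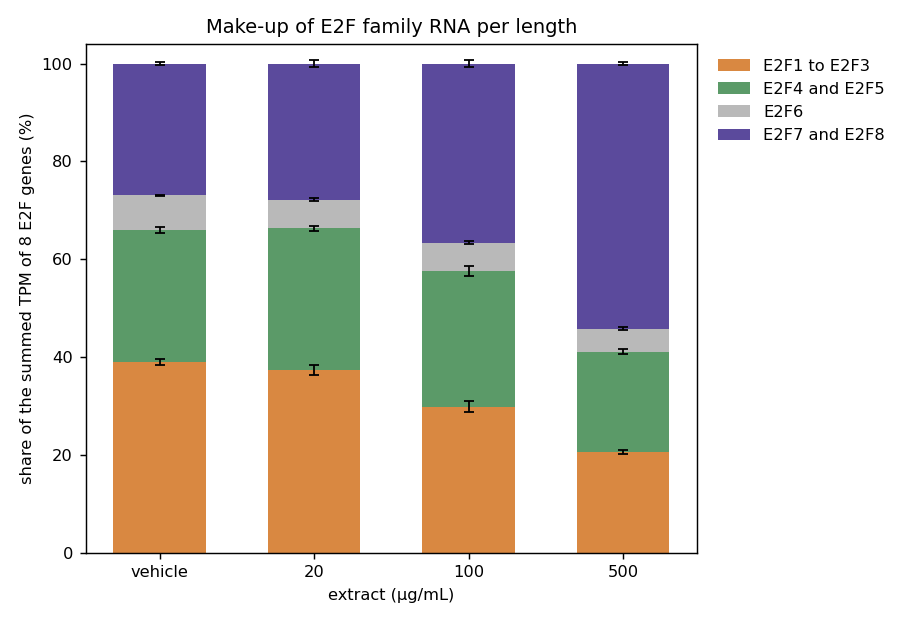
Share in percent of the summed TPM of the 8 E2F genes (vertical axis, from 0) taken by each class, by extract dose in µg/mL. Stacked bars are means of 3 libraries and error bars are the SD of each class, drawn at its upper edge. The share of E2F7 and E2F8 widened from 27.0% in vehicle to 54.2% at 500 µg/mL while that of E2F1 to E2F3 went from 39.0% to 20.5%, and since shares add to 100% these are not separate changes.

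E2F1 to E2F6 bind DNA with a DP partner. TFDP1, the main DP gene, was at 3391, 3405 and 3624 normalised counts in vehicle, 2928, 2942 and 2848 at medium dose and 1924, 1900.1 and 1919 at high dose. These groups did not overlap, and TFDP1 fell by 0.86 on the log2 scale at high dose (SE 0.0405, adjusted p = 5.86e-98) with a medium dose value of -0.26 short of 1.5-fold. TFDP2 stood at -0.32 (adjusted p = 1.40e-04) and RBL2, the pocket protein of resting cells, at 0.15 (adjusted p = 0.00281), both uncalled, and TFDP3 was near 0 counts. Thus 1 of 3 tested genes of this list was called, where 18.2% of all genes were, with a median log2 difference of -0.32 beside -0.01 over all genes tested, and exons of AKTIP on the opposite strand, itself at 0.70, cover 16.4% of RBL2.

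The MuvB core (LIN9, LIN37, LIN52, LIN54 and RBBP4) joins p107 or p130 with E2F4 or E2F5 to form the DREAM repressor of resting cells, and joins MYBL2 and FOXM1 to drive mitotic genes. MYBL2 was at 818, 735 and 769 normalised counts in vehicle and 473, 471 and 503 at high dose, wholly lower, and fell by 0.68 on the log2 scale (SE 0.0775, adjusted p = 1.62e-17). LIN37 rose at high dose, at 0.65 (SE 0.156, adjusted p = 1.05e-04), from 131, 129 and 175 to 224, 238 and 216 normalised counts. Exons of other genes, however, cover 41.8% of its exon bases on the opposite strand and 26.7% on the same strand. Mean normalised counts in vehicle and at high dose were 3.59 and 4.45 for ENSG00000267439 (opposite strand). They were 10.9 and 1.72 for ENSG00000188223 (same strand), and the part of this overlap in the LIN37 counts was not tested. LIN9 at -0.57, RBBP4 at -0.49, FOXM1 at -0.32, LIN54 at -0.20 and LIN52 at 0.44 had adjusted p-values under 0.05 and lay within 1.5-fold. Together 2 of 7 genes were called, 1 each way, beside 18.2% of all genes, with a median of -0.32, and exons of SYNC, itself at -0.70, and of ITFG2, at 0.22, cover 22.8% of RBBP4 and 15.9% of FOXM1 on the opposite strand.

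Of 12 polycomb and MAX partners with which E2F6 represses genes, all lay within 1.5-fold of vehicle at high dose, with a median log2 difference of 0.06, so that no call was possible. Adjusted p-values were under 0.05 for 7 of them, 5 higher and 2 lower, beside 46.5% of all genes with such a p. Of 7 corepressors of the pocket proteins, 2 were called, both lower, where 18.2% of all genes were called and 9.57% lower: the histone deacetylase HDAC1 fell by 0.69 (SE 0.0374, adjusted p = 1.18e-74) and the histone methyltransferase SUV39H1 fell by 0.59 (SE 0.0820, adjusted p = 2.83e-12), with a list median of -0.07. Exons of ENSG00000232828 on the opposite strand cover 21.2% of SUV39H1, and that gene had mean normalised counts of 0.467 in vehicle and 0.982 at high dose.

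The G1 cyclins and kinases phosphorylate pocket proteins and so release E2F. Their list here also held CDC25A and SKP2, marked because they are neither cyclins nor kinases. At high dose 8 of 10 tested genes of this list, CDC25A and SKP2 included, were called and all 8 were lower. Of all genes 9.57% were called lower, and the list median was a log2 difference of -0.85. CCNE2, a cyclin E gene and itself an E2F target, was at 712, 665 and 648 normalised counts in vehicle, 415, 379 and 331 at medium dose and 220, 201 and 224 at high dose, without overlap, and fell by 1.65 (SE 0.0992, adjusted p = 1.03e-60). SKP2, which marks the inhibitor p27 for destruction, fell by 1.17 (SE 0.0901, adjusted p = 5.35e-37), and CCNA2, cyclin A, fell by 1.06 (SE 0.0561, adjusted p = 2.21e-77). CDK4 at 0.02 and CCND1 at -0.05 were not called and were chosen for mention after their values were seen, and exons of TSPAN31 and LTO1 on the opposite strand cover 44.2% of CDK4 and 10.4% of CCND1. At medium dose only CCNE2 was called, at -0.85, where 3.81% of all genes were called, and the list median was -0.34. Exons on the opposite strand, including those of INTS8, itself at -0.24, cover 37.1% of CCNE2.

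The CDK inhibitors act against those kinases, and 3 of 7 were called at high dose in both directions, where 18.2% of all genes were called. CDKN1A (p21) was at 446, 464 and 438 normalised counts in vehicle, 376, 411 and 402 at medium dose and 1175, 1230 and 1244 at high dose. It was higher at high dose alone, at a log2 fold change of 1.44 (SE 0.0730, adjusted p = 1.62e-84). CDKN2B (p15) rose at both doses, by 0.62 at medium and 1.48 at high dose (SE 0.0593, adjusted p = 2.86e-136), and CDKN2C (p18) fell by 0.84 at medium dose and fell by 2.11 at high dose (SE 0.0604, adjusted p = 1.52e-264), with 20.4% of its exon bases covered by a gene on the opposite strand. The list median was 0.36 at high dose and -0.02 at medium dose.

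**Figure D4:**
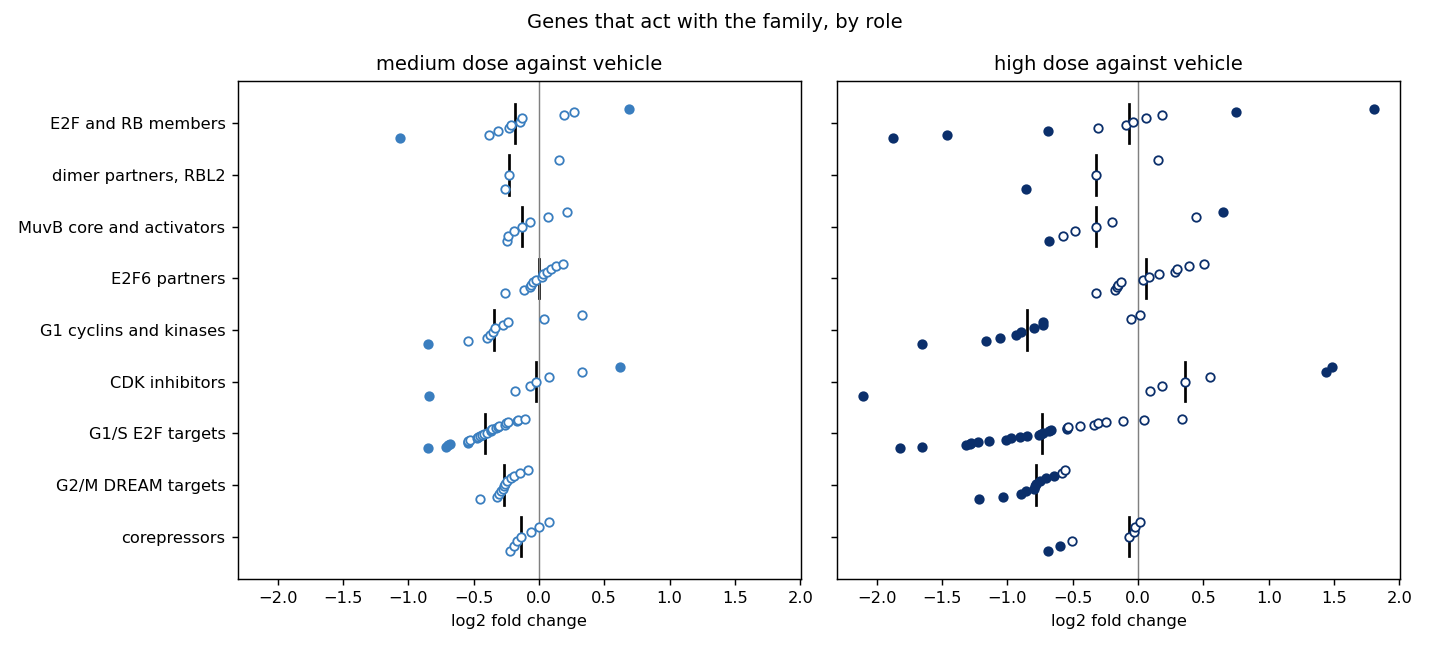
Log2 fold change against vehicle (horizontal axes) of the members and of 8 lists of genes that act with them, at medium dose (left) and high dose (right). Each point is a gene, filled where called, and the black bar is the list median. At high dose the G1 cyclin, G1/S target and G2/M target lists lay mostly to the left of 0, with medians of -0.85, -0.74 and -0.78, while the E2F6 partners had a median of 0.06.

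Genes that E2F factors are known to drive at the G1/S boundary were lower as a list. Of 26 such genes 16 were called at high dose, all lower, where 9.57% of all genes were called lower. Their median log2 difference was -0.74 beside -0.01 over all genes tested. At medium dose 4 were called, all lower, with a median of -0.41, where 3.81% of all genes were called in either direction. UHRF1, which maintains DNA methylation at replication forks, was at 1671, 1655 and 1717 normalised counts in vehicle, 1198, 1140 and 1134 at medium dose and 502, 462 and 466 at high dose, and fell by 1.82 (SE 0.0613, adjusted p = 1.35e-191). RRM2, a subunit of ribonucleotide reductase, fell by 1.32 (SE 0.0383, adjusted p = 2.74e-257), and CCNE2 is the other gene of largest change. CDC6, a replication licensing gene, stood apart at 0.33 (SE 0.0498, adjusted p = 1.42e-10), within 1.5-fold, and was singled out after its value was seen. CCNE1 and CCNE2 belong to this list and to the G1 list alike. All the lists were chosen with earlier results of these data known, so their counts beside the shares of all genes are descriptions.

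Mitotic genes repressed by DREAM in resting cells were also lower. Of 12 such genes 10 were called at high dose, all lower, with a median of -0.78, where 9.57% of all genes were called lower. At medium dose all 12 lay within 1.5-fold, with a median of -0.27. An adjusted p under 0.05 was reached there in 11, beside 29.5% of all genes. AURKA, a spindle kinase, fell by 1.21 (SE 0.0508, adjusted p = 3.23e-124), KIF11, a spindle motor, by 1.03 (SE 0.0474, adjusted p = 2.02e-103) and TOP2A, topoisomerase II alpha, by 0.90 (SE 0.0299, adjusted p = 6.96e-197). At low dose every tested gene of these 8 lists lay within 1.5-fold of vehicle, with list medians from -0.09 to -0.01. There 4 G1/S genes had an adjusted p under 0.05, beside 3.29% of all genes.

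The genes whose pattern over the 12 libraries was most like that of each called member were sought among up to 10726 other protein-coding genes with a mean of at least 100 normalised counts, by Pearson r on log2(normalised count + 1). All points share the dose groups and the libraries, so many genes scored high: 1193 genes reached r over 0.95 with E2F7, 1041 with RBL1, 801 with E2F8, 723 with E2F5 and 447 with E2F2. Most like E2F7 were BTG1 (r = 0.999), an antiproliferative gene, THBD (r = 0.998), the thrombomodulin gene, and PPP1R15A (r = 0.998), a gene of the integrated stress response. Most like E2F2 were NRN1 (r = 0.991), PCDH10 (r = 0.987) and ZNF367 (r = 0.986). E2F8 was nearest to FAM13C (r = 0.992), SPAG5 (r = 0.990) and HNRNPM (r = 0.990), RBL1 to LDHA (r = 0.994), MINPP1 (r = 0.993) and TARDBP (r = 0.993), and E2F5 to SWT1 (r = 0.994), PCGF1 (r = 0.989) and TRIB1 (r = 0.988). These correlations are descriptions over n = 12 libraries in 4 groups.

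Near-identical copies could draw reads away from a member. The processed pseudogenes E2F3P1, E2F3P2, E2F4P1 and E2F6P1 to E2F6P4 held at most 3.64 counts in any library (E2F6P1), and the neighbouring transcripts E2F5-DT, E2F3-IT1 and RB1-DT held at most 4, 1 and 1. Exons on the opposite strand cover 3.58% of RBL1 and 0.169% of E2F8, and 0% of the other members apart from E2F5.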

How the data were processed

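RNA was measured in 12 SW1783 libraries, 3 in each of 4 groups, and groups and replicate numbers came from the sample labels. Per the labels, the authors made directional mRNA libraries from total RNA, sequenced paired ends, checked reads with FastQC 0.11.9, trimmed with Trim Galore 0.6.5, aligned with STAR 2.7.3a and counted with RSEM 1.3.3. The study's methods name a GRCh38 annotation and partly other tool versions. Poly(A) selection and the strand setting of RSEM are not given in the sources used here. The deposited values are RSEM expected counts per gene, unfiltered and not normalised by the authors, of which 8.75% were not whole, and they were rounded here. RSEM splits reads that match several genes. Symbols and 1-based coordinates came from GENCODE v44 (GRCh38), which matched 93.2% of the IDs and 99.9% of the counts. Every column was matched to a sample, with 0 left over.

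Groups were compared by the Wald test the study names, two-sided, in DESeq2 1.42.0 (R 4.3.3), in a single fit of the 12 libraries whose only term was the group, with Benjamini-Hochberg adjustment over all genes tested, independent filtering at 0.05, and a call at an adjusted p under 0.05 with a fold over 1.5. Group means are given with SD over n = 3, and log2 fold changes with the standard error of the fit. The procedure was also run on simulated counts in which few genes changed, and only at high dose, unlike in these data. Replicates differed by 1.99 to 3.55 times counting noise (chi-square per degree of freedom), and all 12 were kept. Per-length levels (TPM) used union exon length. Promoter sequences came from the RefSeq table of GRCh38.p14, which had entries for 8 of the 10 members.

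Members and lists were chosen with earlier results of these data known. Named were all members, all partner genes, the 3 largest called changes of each other list at high dose with a mean of at least 100 normalised counts, the 3 genes most correlated with each called member, and annotated copies of members. Genes named outside this rule are marked or are overlap partners and markers. Alternatives changed the tool (edgeR 4.0.16), normalisation, filters, thresholds, libraries and the replicate block. Same-numbered low and medium dose libraries deviated together from their group means (r = 0.157, 0.123 and 0.192), so the numbers may pair those groups. For high dose libraries the same-numbered r was -0.0193, 0.0584 and 0.134 with low dose. With medium dose it was 0.0547, 0.0355 and 0.221, so replicate 3 of the high dose may be paired too. Same-numbered vehicle and dosed libraries did not deviate together (r from -0.118 to -0.00761).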

Additional observations from a re-analysis of the deposited data

How the results depend on the processing

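Calls of members were compared over the alternatives. The edgeR quasi-likelihood test with and without a filter, TMM size factors, size factors without mitochondrial genes, other filters, a fit of only the groups compared and the replicate block all left 5 members called at high dose, 2 at medium dose, 0 at low dose, 3 between high and medium dose and 2 between medium and low dose, and so did each of the 12 omissions of a library. With the replicate block E2F7 stood at 1.81 and E2F2 at -1.88 at high dose, and no call with the fold threshold changed. Without a fold threshold 7 members passed at medium dose, 5 between high and medium dose and 5 between medium and low dose. When the test was made against the 1.5-fold threshold itself, 3 passed at high dose, 0 at medium dose, 1 between high and medium dose and 0 between medium and low dose. E2F5 (adjusted p = 0.948) and RBL1 (adjusted p = 0.676) were the members lost at high dose, so their changes are not shown to exceed 1.5-fold.

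The number of members differing over the 4 groups was 8, 9 with edgeR, 7 with the replicate block, 7 without independent filtering, and 6 to 8 with a library left out. E2F3 was the member added by the edgeR quasi-likelihood test (adjusted p = 0.0163 with a filter and 0.0309 without). E2F6 was the member lost with the block (adjusted p = 0.111) and in 10 of 12 omissions, and E2F4 was lost without vehicle replicate 1 (adjusted p = 0.0685). By adjusted p alone at medium dose, E2F5 passed in none of the 12 omissions (adjusted p = 0.0627 to 0.202) nor with the block (0.113), E2F8 was lost in 10 (up to 0.205) and with the block (0.106), E2F1 was lost without vehicle replicate 1 or medium replicate 3, and E2F4 without medium replicate 2. Between medium and low dose, E2F1 was lost in 2 omissions, E2F8 in 4 and RBL1 in 2.

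Direction changed only for uncalled differences near 0 and only when a library was left out. These were E2F1 at low dose (-0.0451 to 0.0230, reversed without vehicle replicate 1 at 0.017 and without low replicate 3), E2F3 at low dose (-0.0033 to 0.0165), RBL1 at low dose (-0.0604 to 0.0043), RB1 at high dose (-0.101 to 0.0082) and E2F4 between high and medium dose (-0.0372 to 0.0186). At E2F2, E2F8 and RB1, with mean normalised counts of 94.2, 141 and 128, the standard errors of 0.160 to 0.207 at high dose limit what could be detected.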
